A study of Mus musculus with 6 samples.

Results

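The neural bHLH transcription factors examined here were 9 genes, Neurog2, Neurod1, Neurod2, Neurod6, Olig1, Olig2, Bhlhe22, Bhlhe40 and Tcf4, chosen by name. Their members in the data were the regions of TERT CUT&Tag signal that the deposited annotation had assigned to one of these genes because its transcription start site was nearest. They numbered 39 of 41527 regions on chromosomes 1 to 19, X and Y, and each of the 9 genes had at least 1. The genes were chosen with earlier results of these data known. TERT is the catalytic protein of telomerase. CUT&Tag uses an antibody, here against TERT, to bring a transposase that cuts and tags the neighbouring DNA. The cells were primary neurons that had been cultured from the cortex and hippocampus of C57BL/6 embryos at E15-18. There were 3 samples treated for 24 h with 2 µM BIBR1532, a small-molecule telomerase inhibitor, and 3 given the vehicle DMSO for 24 h, which a label field calls untreated.

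The 3 libraries of each treatment had been pooled before regions were compared, so each treatment is 1 measurement and no region has a replicate value. No test between treatments was therefore made, and the exact (Clopper-Pearson) 95% intervals given below cover counting error only. The regions came as 3 lists: 16153 with more signal in the BIBR1532 pool (the BIBR1532 list), 18562 with more signal in the vehicle pool (the vehicle list) and 6812 common to both. Which list belongs to which treatment was read from the order of the pools in the list names, so the direction is likely and not stated outright. The depth of the pools is unknown, no control library is among the samples, and region scores are the authors' values. Scores rank regions within a list and are not compared between lists.

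Basic helix-loop-helix (bHLH) proteins bind DNA as dimers at short sites called E-boxes. In the developing cortex, proneural members such as Neurog2 start neuronal differentiation, and NeuroD members act in maturing and mature neurons. Olig proteins specify oligodendrocytes and, in the ventral spinal cord and hindbrain, motor neurons. E proteins, among them Tcf4, are the broadly expressed dimer partners of these cell type-specific factors.

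Of the 9 genes, 3 had a promoter region in a treatment-specific list, and none had a promoter region in the common list. Neurod1 and Bhlhe40 had a promoter region in the BIBR1532 list (2 of 9), against 6.89% of all 21887 protein-coding genes. Neurod6 had a promoter region in the vehicle list (1 of 9), against 7.37% of protein-coding genes. A common promoter region was listed for 0 of 9, against 14.2%. The lists hold only regions past a threshold, so a promoter without a listed region is not shown to lack signal. These counts of 0 to 2 of 9 describe the lists and were not tested.

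The promoter windows of Neurod1 and Neurod6 are shown because in each a treatment-specific region lay wholly inside the window, from the BIBR1532 list at Neurod1 and from the vehicle list at Neurod6. Each runs 5′ to 3′ along the gene from 250 bases before to 50 bases after the start site, from RefSeq (GRCm38.p6), and capitals mark the bases inside the TERT region.
Neurod1 promoter, BIBR1532 region, chr2:79456587-79456886, minus strand: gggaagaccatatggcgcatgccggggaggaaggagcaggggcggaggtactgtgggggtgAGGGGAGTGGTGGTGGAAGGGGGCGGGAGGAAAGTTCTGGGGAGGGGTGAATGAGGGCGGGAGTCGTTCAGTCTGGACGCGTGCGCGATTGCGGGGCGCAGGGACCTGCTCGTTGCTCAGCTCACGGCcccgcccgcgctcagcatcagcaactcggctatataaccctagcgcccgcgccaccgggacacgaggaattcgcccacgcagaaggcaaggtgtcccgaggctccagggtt
Neurod6 promoter, vehicle region, chr6:55681214-55681513, minus strand: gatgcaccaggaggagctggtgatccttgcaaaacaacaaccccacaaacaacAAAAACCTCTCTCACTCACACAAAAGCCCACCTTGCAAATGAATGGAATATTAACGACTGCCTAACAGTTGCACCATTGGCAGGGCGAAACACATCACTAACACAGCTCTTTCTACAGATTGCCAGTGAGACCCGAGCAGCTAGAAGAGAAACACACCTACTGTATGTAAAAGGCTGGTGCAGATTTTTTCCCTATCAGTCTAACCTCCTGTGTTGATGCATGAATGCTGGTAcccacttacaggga

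The Neurod1 region covered 128 bp, at positions -189 to -62 from the start site (position 0), and ended short of it. The Neurod6 region covered 233 bp, at positions -197 to 35, and included the start site. The windows also differed in base composition, with 66.7% G and C at Neurod1 and 46.3% at Neurod6, around a median of 52.7% over all 32851 RefSeq promoter windows. An E-box (CANNTG, read on both strands) was present in 72.3% of those windows. In the Neurod6 window 2 E-boxes, CAAATG at position -162 and CAGTTG at -132, both lay inside the TERT region. The Neurod1 window held 1, CATATG at -242, outside the region. Among the promoter windows of Neurod2, Neurog2 and Olig2, which no region overlapped, Neurod2 had 3 E-boxes and the others 0. One of the Neurod2 sites was CAGATG, a form of the E-box found in 17.2% of windows, and CAGCTG, another form of it, was in none of these 5 windows and in 16.3% of all. The telomere repeat unit TTAGGG, searched on both strands, was likewise in none of the 5 and in 10.6% of all windows. No window was examined for Bhlhe40, which also had a promoter region, or for Bhlhe22, Olig1 and Tcf4.

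Over all classes, the 9 genes were named by 19 BIBR1532, 18 vehicle and 2 common regions. The BIBR1532 share of the 37 treatment-specific regions was 51.4% (interval 34.4 to 68.1), and over all genes it was 46.5%. At least 1 BIBR1532 region was named for 7 of the 9 genes, against 34.5% of protein-coding genes. Likewise 7 of 9 had a vehicle region, against 37.5%, and 2 of 9 (Bhlhe22 and Tcf4) a common one, against 23.9%. The 9 genes were chosen with earlier results known and each had a region, so no excess is read from these counts. Most member regions lay outside promoters: introns held 10 BIBR1532, 7 vehicle and 1 common region, and intergenic sequence 5, 10 and 1. The promoter share of the 39 regions was 7.69% (interval 1.62 to 20.9), and that of all regions was 17.0%. The latter includes the common list, where the share was 51.9% and to which only 2 member regions belonged. Within the BIBR1532 list the promoter share was 10.5% for members and 10.6% for all regions. Within the vehicle list it was 5.56% and 9.77%. Widths were like those of the whole lists, with medians of 225 bp for BIBR1532 and 221 bp for vehicle regions, against 247 and 244 bp over all regions of the same lists. Annotated repeats held 2 of 19 BIBR1532 regions and 1 of 18 vehicle regions, where 25.2% and 25.5% of the whole lists lay in repeats.

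**Figure D1:**
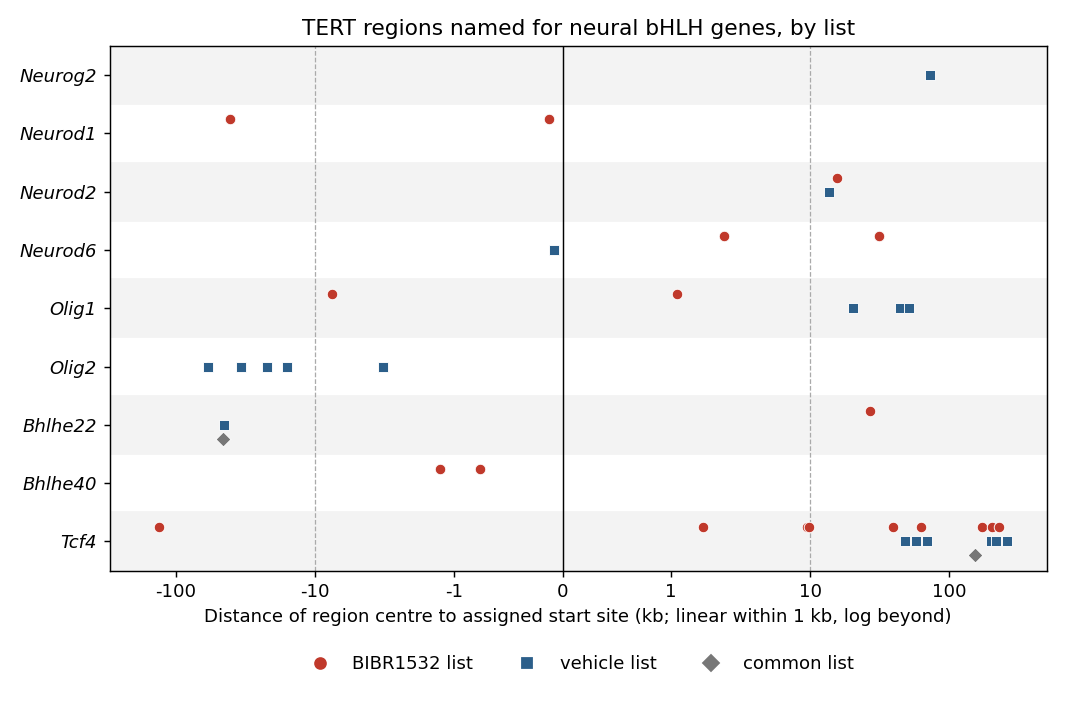
Distance of each of the 39 regions from the start site to which it was assigned, in kb (horizontal axis, linear within 1 kb and logarithmic beyond; negative is upstream), for each gene, with BIBR1532 regions as red circles above vehicle regions as blue squares and common regions as grey diamonds; dashed lines mark 10 kb. Between the dashed lines there are 9 BIBR1532 regions, 2 vehicle regions and no common region.

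As a description of the lists, BIBR1532 regions of these genes lay closer to start sites than vehicle regions did. Their median distances were 15.7 kb and 46.5 kb, and over all regions they were 23.5 kb and 26.5 kb. Within 10 kb of the start site lay 9 of 19 BIBR1532 regions (47.4%, interval 24.4 to 71.1) and 2 of 18 vehicle regions (11.1%, interval 1.38 to 34.7). Over all regions the shares were 35.3% and 31.6%. The 9 regions belonged to Neurod1, Neurod6, Olig1, Bhlhe40 and Tcf4, and the 2 vehicle regions to Neurod6 and Olig2. The Tcf4 regions counted at 9.58 and 9.83 kb lay 12308 and 12556 bp from the first base of that gene. Without Tcf4 the counts were 6 of 10 and 2 of 12. At a score of at least 3 they were 4 of 13 (30.8%) and 2 of 16 (12.5%), so 5 of the 9 BIBR1532 regions near start sites had a lower score. With regions within 1 kb merged they were 7 of 17 and 2 of 18. Without regions at the most frequent score they were 6 of 13 (46.2%) and 2 of 12 (16.7%). Over all regions without that score the shares were 46.6% and 44.8%, so the BIBR1532 regions of these genes were then not closer than those of all genes. In 55 related bHLH genes the order was opposite, at 12 of 62 BIBR1532 regions (19.4%) and 21 of 64 vehicle regions (32.8%).

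**Figure D2:**
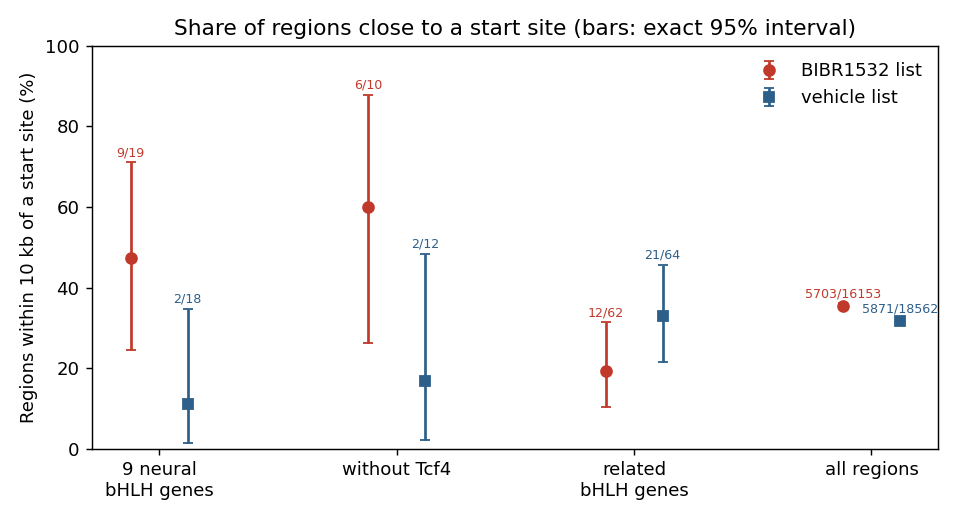
Share of regions within 10 kb of a start site, in percent, in the BIBR1532 list (red circles) and the vehicle list (blue squares), for the 9 genes, for those without Tcf4, for the related bHLH genes and for all regions. Bars are exact 95% intervals from counting error only; the intervals of the 9 genes (24.4 to 71.1 and 1.38 to 34.7) overlap, and the related genes show the opposite order.

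Neurog2, the proneural factor of cortical progenitors, had the fewest regions of the 9 genes. Its single region, in the vehicle list, was 201 bp wide with a score of 6.15, at chr3:127705967-127706167. It lay 72.9 kb downstream of the Neurog2 start site, inside intron 3 of 13 of another gene, the protein kinase gene Alpk1. The region is tied to Neurog2 by the nearest start site alone.

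The NeuroD genes, which act in neuronal differentiation and in postmitotic glutamatergic neurons, had 5 BIBR1532 and 2 vehicle regions. Neurod1 had BIBR1532 regions only. Its promoter region, chr2:79456698-79456825, had a score of 6.34, which is the most frequent score of the BIBR1532 list (46.8% of its regions). Its other region, at chr2:79495195-79499770, lay 40.8 kb upstream of the gene in intergenic sequence and was 4.58 kb wide with a score of 11.5. That was the widest of the 39 regions, wider than 99.4% of the BIBR1532 list and higher in score than 97.1% of it. The annotation placed it in an L2a element, an ancient LINE repeat.

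Neurod2 and Neurod6 each had regions of both treatments close together. At Neurod2 the BIBR1532 region (282 bp, score 9.20) and the vehicle region (128 bp, score 5.19) lay 15.7 and 13.6 kb downstream of the start site, with 1892 bp between them. The first of these overlapped the non-coding gene Gm31317. At Neurod6 the BIBR1532 region nearest to the start site was in exon 2 of 2, 2395 bp downstream (185 bp, score 6.34). The vehicle region, at the promoter (chr6:55681228-55681460), had a score of 7.35, above 84.6% of the vehicle list, and 2267 bp separated it from the exon region. A further BIBR1532 region, 31.1 kb downstream of Neurod6, lay in the non-coding gene Gm34441 and also had a score of 6.34. Both BIBR1532 regions of Neurod6 thus had the score that was most frequent in their list, and the vehicle region did not.

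Olig2, which specifies oligodendrocytes and motor neurons, had vehicle regions only, and Olig1, its neighbour with a role in oligodendrocyte maturation, had both kinds. The start sites of these genes are 44.2 kb apart on chromosome 16, and their 10 regions spanned 154 kb. The BIBR1532 list held 2 of these 10 and the vehicle list 8, which puts 20% in the BIBR1532 list (interval 2.52 to 55.6, which includes the 46.5% of all genes). All 5 Olig2 regions were upstream, at 3252, 16013, 22387, 33996 and 58562 bp from the start site. The nearest, chr16:91222161-91222436, had the highest score of the 8 vehicle regions (7.72, above 90.8% of the vehicle list). Of the others, the region at 22387 bp was the widest (908 bp, in an RMER1B repeat), and those at 33996 and 58562 bp lay in the non-coding gene Gm41492. The regions at 22387 and 58562 bp had scores above 71.6% and 72.7% of the vehicle list. Those at 16013 and 33996 bp had low scores of 5.19 and 1.69, above 12.9% and 4.88% of it.

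The BIBR1532 regions of the Olig locus were both within 10 kb of the Olig1 start site. One was intergenic, 7621 bp upstream (score 2.17), and the other lay in the gene, 1115 bp downstream (score 2.56, in the 3' UTR of its single exon). Both scores were low for the BIBR1532 list, above 12.03% and 13.95% of it. The 3 vehicle regions of Olig1 were farther downstream, at 20.4, 44.5 and 51.3 kb. All had a score of 5.19, the most frequent of the vehicle list (50.2% of its regions). That score was also low, above 12.9% of the vehicle list. No vehicle region lay within 10 kb of the Olig1 start site, and no BIBR1532 region was assigned to Olig2.

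**Figure D3:**
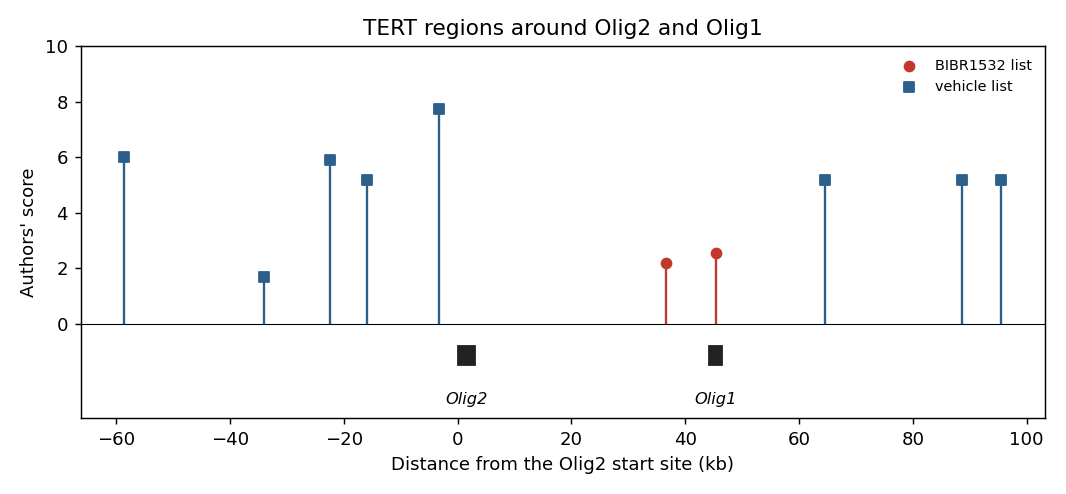
The 10 regions assigned to Olig2 and Olig1 by distance from the Olig2 start site in kb (horizontal axis) and authors' score (vertical axis, not comparable between lists), with BIBR1532 regions in red, vehicle regions in blue and gene bodies as black boxes. Of the 2 BIBR1532 regions 1 lies in Olig1 and 1 lies 7621 bp upstream of its start site, with vehicle regions on both sides.

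The repressor genes differed in where their regions lay. Bhlhe40, which encodes a repressor that responds to the circadian clock and to cell stimulation, had 2 BIBR1532 regions, both just upstream of its start site. They were 761 bp upstream (chr6:108659683-108660053, 371 bp, score 7.28) and 1278 bp upstream (chr6:108659220-108659482, 263 bp, score 2.32), with 200 bp between them. The nearer was annotated as promoter, with a score above 79.8% of the BIBR1532 list, and the farther as intron 1 of 6 of a non-coding transcript. Both overlapped the non-coding gene 0610040F04Rik. The nearest vehicle region on the chromosome was 48973 bp from the promoter region, and the nearest common region 446480 bp.

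Bhlhe22, which encodes a repressor with roles in cortical area identity and sensory circuits, had 1 region in each list. All were at least 26.9 kb from its start site. The common region was 1324 bp wide, wider than 99.9% of the common list, and lay 46.1 kb upstream at an L1 element. Its score of 0.0858 was above 42.3% of the common list. The vehicle region (235 bp, score 1.72) overlapped the common region by 41 bp, so at this site shared and vehicle-specific signal were side by side, and both overlapped the pseudogene Gm5844. The BIBR1532 region (227 bp, score 5.58) lay 26.9 kb downstream in intron 4 of 5 of Cyp7b1, an oxysterol hydroxylase gene.

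Tcf4, the E protein gene of the group and by far its longest member at 344.5 kb, held 16 of the 39 regions: 9 BIBR1532, 6 vehicle and 1 common. Its BIBR1532 share of treatment-specific regions was 60.0% (interval 32.3 to 83.7). None of the 16 was at a promoter. All but 1 lay in introns, 7 of them (4 BIBR1532 and 3 vehicle) in intron 3 of 19. The exception was a BIBR1532 region 133 kb upstream of the start site (score 6.41). The 3 BIBR1532 regions nearest to the start site lay 1.69, 9.58 and 9.83 kb downstream, with scores of 1.29, 1.29 and 6.34. The start site used by the annotation lies inside the gene. From the first base of Tcf4 the same regions lay at 4421, 12308 and 12556 bp. The score of 1.29 was above only 0.526% of the BIBR1532 list. The nearest vehicle region of Tcf4 was 47.7 kb from the start site (score 3.89).

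Farther into Tcf4 the treatments alternated. The vehicle region 199 kb from the start site (score 6.37) and a BIBR1532 region 202 kb from it (score 6.34) had 2455 bp between them. The first score was above 75.8% of the vehicle list. The second was the most frequent score of the BIBR1532 list, above 24.3% of it. The highest score among the 19 BIBR1532 regions, 12.2, was at 230 kb in intron 8 (341 bp, above 98.2% of its list). The highest score among the 18 vehicle regions, 8.16, was at 218 kb in intron 6 (163 bp, above 92.5% of its list). The common region, 154 kb from the start site, was 477 bp wide with a score of 0.0276. Between the cluster in intron 3 and the regions from 154 kb onward, no region of any list was assigned to the gene.

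**Figure D4:**
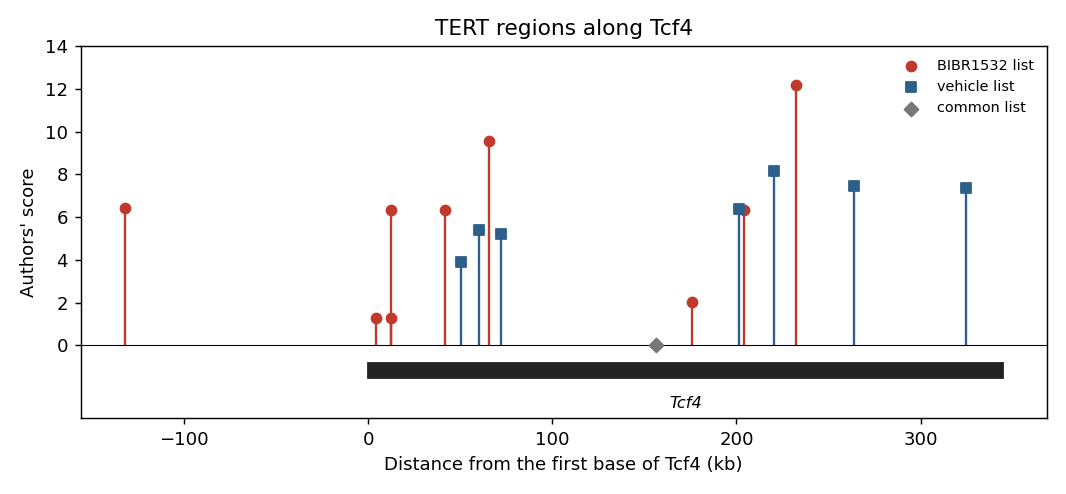
Regions along Tcf4 by distance from the first base of the gene in kb (horizontal axis) and authors' score (vertical axis, not comparable between lists), with BIBR1532 regions in red, vehicle regions in blue, the common region in grey and the gene body as a black bar. The rightmost vehicle region lies in Tcf4 and was assigned to Ccdc68 by the deposited annotation, and the leftmost BIBR1532 region lies upstream of the gene. Distances from the start site in the text use the annotated start site, which lies inside the gene.

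By position rather than nearest start site, the body of Tcf4 held 8 BIBR1532 and 7 vehicle regions. The additional vehicle region, chr18:69668196-69668395 (score 7.35), was assigned to Ccdc68. These 15 regions came to 4.35 per 100 kb of gene. Among 204 other protein-coding genes of 300 to 400 kb, the median was 1.31 per 100 kb (range 0 to 6.30), and 8 genes (3.92%) were higher than Tcf4.

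Of 55 related bHLH genes listed for comparison, 44 had a region, and together they had 62 BIBR1532, 64 vehicle and 17 common regions, a BIBR1532 share of 49.2% (interval 40.2 to 58.3). The share of all protein-coding genes with a region in any list was not counted. By list it was 34.5% (BIBR1532), 37.5% (vehicle) and 23.9% (common). A BIBR1532 promoter region was present at 4 of the 55 and a vehicle promoter region at 4, beside 6.89% and 7.37% of all protein-coding genes. A common promoter region was present at 8 of the 55, beside 14.2% of all protein-coding genes. These 8 were the E protein gene Tcf3, the Id genes Id1 and Id4, whose products block E proteins, the neuronal differentiation gene Hes6, and Mitf, Usf1, Usf2 and the clock gene Arntl. Among the E proteins, Tcf12 had 5 BIBR1532 regions, 1 of them at a promoter, 0 vehicle regions and 1 common region, and Tcf3 had 1, 2 and 1. Of the other proneural genes, Atoh1 had 3, 2 and 0, and Atoh8 had 0, 3 and 0. Bhlhe41, the closest relative of Bhlhe40, had 2 BIBR1532 regions, both at a promoter, 1 vehicle and 1 common region. The Olig relatives Bhlha15 and Olig3 had 2, 2 and 0, and 0, 2 and 0. Id2 had 0, 3 and 0, and Hey2, a Notch target, had 1, 1 and 0. The largest numbers among the remaining bHLH genes were those of the 824 kb gene Npas3 (10, 6 and 1), Mitf (6, 4 and 1) and Epas1 (5, 2 and 0).

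In the counts over the 3 lists, Neurod1 and Bhlhe40 were alike, with 2 BIBR1532, 0 vehicle and 0 common regions each. In all 465 other genes shared the counts of Neurod1, among them Msc and Npas2 of the related list. Neurod2 (1, 1 and 0) shared its counts with 1077 other genes, including Hey2, Sim1 and Tcf21, and Bhlhe22 (1, 1 and 1) with 400, including Hif1a. Olig2 (0, 5 and 0) shared its counts with 17 other genes and Tcf4 (9, 6 and 1) with 2, of 15356 genes named by any region, and the related list held none of those.

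Region lists give no expression level, so they do not show which cell types were in the cultures. A common promoter region was listed for 2 of 8 neuronal markers, Snap25 and Syt1. It was listed for 1 of 8 oligodendrocyte lineage markers (Cnp), 1 of 6 neural progenitor markers (Vim), 0 of 6 astrocyte and 0 of 5 microglial markers. Of all protein-coding genes, 14.2% had one, and these small counts were not tested. A region of any class was listed for 8 of 8 neuronal, 5 of 6 astrocyte, 5 of 6 neural progenitor and 4 of 5 microglial markers. The share of all protein-coding genes with a region in any list was not counted. By list the shares were 34.5% (BIBR1532), 37.5% (vehicle) and 23.9% (common). The markers also differed in length, and the neuronal ones included Syt1 at 513 kb and Rbfox3 at 422 kb. No difference between cell types is therefore read from these counts. Of the 8 oligodendrocyte lineage markers, 4 had a region of any class: Mbp had 1 BIBR1532 and 3 vehicle regions, Cspg4 2 BIBR1532 regions, and Mog and Cnp 1 common region each. Sox10, Pdgfra and Mag were among those with no region in any list. Whether glial or progenitor cells contributed to the Olig1 and Olig2 regions was not tested.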

How the data were processed

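TERT CUT&Tag was measured in 3 BIBR1532 and 3 vehicle samples. Tools listed in the submitters' processing notes, without their roles, are MACS2 2.1.2, Picard, Bowtie2 and CASAVA 1.8, and the build listed there is mm10. Per the file headers, pooled triplicates were compared with bdgdiff and the regions annotated with annotatePeaks.pl on mm10. The deposited value of each region is a score by the authors; the sources used here do not state the scaling of the pools. The lists hold regions past a threshold only, so a gene without a region has no value.

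The 7-bit encoding of both treatment-specific lists was decoded, other contigs than chromosomes 1 to 19, X and Y were left out, and counts, shares, medians and exact intervals were computed and checked on tables of known content. The work used scipy 1.17.1, numpy 2.4.6 and pandas 2.3.3 under Python 3.11.15, with matplotlib 3.10.9 for plots. Gene positions came from RefSeq, which held all 9 genes. Motifs were searched in its promoter windows, which among the 9 genes covered Neurod1, Neurod2, Neurod6, Neurog2 and Olig2 only. The 9 genes, the related list and the alternatives were chosen with earlier results of these data known. All 9 genes are named whatever their values. Related genes are named for a common promoter region, for being among up to 3 of their group with the most regions, or for having the same counts as a member. In groups with ties, 1 of the tied genes or none is named. Some items that the rule takes are not reported here. No test between treatments was possible with 1 pool each.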

Additional observations from a re-analysis of the deposited data

How the results depend on the processing

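No paired analysis was possible because the libraries of each treatment were pooled before the regions were listed, and no replicate could be left out. Of 58 recomputed values, 43 stayed within 1.5 times the reported count or inside the reported interval. The count of 0 members with a common promoter region was the same in every alternative run. Most of these runs only removed or merged regions and could not have raised it. Those that could were assignment by gene body and counting regions centred within 1 kb of the start site as promoter. Requiring regions of at least 500 bp left 1 BIBR1532, 1 vehicle and 1 common region, 0 genes with a treatment-specific promoter region and a promoter share of 0%. Keeping only regions within 10 kb of the start site left 9, 2 and 0 regions, a BIBR1532 share of 81.8% (interval 48.2 to 97.7), a promoter share of 27.3% and a median distance of 1690 bp, by construction. Assignment by gene body and 5 kb before it gave 9 vehicle regions and 1 common region, since distant regions dropped out. Without Tcf4, a setting added after seeing the data, 10 BIBR1532 regions and 1 common region remained. The lists limit all of this: 7563 BIBR1532 and 9312 vehicle regions share 1 score each, and 6 of 19 and 6 of 18 member regions were at that score.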

Other observations

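Several regions counted for these genes lay inside other genes. Besides Alpk1 for Neurog2 and Cyp7b1 for Bhlhe22, non-coding genes held regions counted for Neurod2, Neurod6, Bhlhe40 and Olig2. By gene body and 5 kb before it, 23 regions were assigned, of which 16 were in Tcf4, and Neurod2, Neurog2 and Bhlhe22 had none.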
